A study of Mus musculus with 8 samples.

Results

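The genes described here are 34 interferon-stimulated genes of the mouse, measured in bone marrow-derived macrophages (BMDMs) that had received no treatment. They were chosen by symbol from a fixed list, and each symbol matched 1 row of the deposited table, so they make up 34 of its 54532 genes. All 34 passed the filter on low counts, which left 12911 genes for the comparison. BMDMs are macrophages that form in culture when marrow cells are given macrophage colony-stimulating factor (M-CSF). The cells came from WT C57BL/6J females, aged 6–8 weeks and bought from a supplier, and from Gsdmd knockout mice (Gsdmd-/-), which were kept at a university facility. All cells had differentiated for 6 days, and there were 4 libraries per genotype. The genotypes differed in the source of the mice as well as in Gsdmd, and these cannot be told apart. Whether the libraries of a genotype stem from different mice is not given in the sources, so the p-values may cover only technical spread.

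Type I interferons bind a receptor made of IFNAR1 and IFNAR2, and the kinases bound to it activate transcription factors, among them STAT2. With IRF9 these form a complex (ISGF3) that binds the interferon-stimulated response element in promoters and switches on antiviral genes. Macrophages keep a low level of many of these genes without infection and raise them strongly after sensing viral RNA or bacterial products. Gsdmd encodes gasdermin D, the protein that forms pores in the membrane during pyroptosis.

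The libraries held from 14935114 to 16794810 counts each, and values are given as CPM (counts of a gene scaled to the library size) after TMM scaling. A count of 0 allows up to 3 counts, or between 0.177 and 0.199 CPM, for counting error only. Gsdmd itself had 63.5 to 95.5 CPM in the WT libraries and 14.4 to 18.2 CPM in the Gsdmd-/- libraries, a log2 fold change of -2.22 (SE 0.14, adjusted p = 4.67e-05), in the direction of the labels. WT 2 and WT 3 stood apart from the other 6 libraries. On the first principal component of all genes tested, which held 43.6% of the variance, they scored 45.4 and 38.8 and the other libraries -25.9 to -7.19. The same was seen after the members and 129 related interferon genes had been removed from the genes, with 42.8% of the variance, scores of 44.5 and 37.7 for these libraries and -24.7 to -7.50 for the others. The results are therefore given with and without WT 2 and WT 3, and leaving them out was chosen with their position already known.

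With all 8 libraries, the mean level of the 34 genes did not separate the genotypes. The mean CPM over the members was 57.3, 41.5, 42.4 and 58.2 in WT 1 to WT 4 and 49.8, 46.5, 45.1 and 46.1 in Gsdmd-/- 1 to 4. All 4 Gsdmd-/- libraries lay above WT 2 and WT 3 and below WT 1 and WT 4. The group means were 49.9 ± 9.15 CPM in WT and 46.9 ± 2.05 CPM in Gsdmd-/- (SD, n = 4 each), a log2 ratio of -0.09. The mean of log2 CPM gave the opposite sign, with 3.85 ± 0.61 in WT and 3.94 ± 0.18 in Gsdmd-/-. Lgals3bp and Samhd1 held between 49.6% and 54.8% of the summed CPM of the members in each library, so the arithmetic mean followed these genes most. Without them, the mean was 25.2 ± 5.65 CPM in WT and 23.5 ± 1.55 CPM in Gsdmd-/- (SD, n = 4).

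By edgeR's quasi-likelihood test, no member was called different between the genotypes. Of the 34, 0 had a Benjamini-Hochberg adjusted p under 0.05, where 0.349% of all genes tested did. At the cutoff the study used (unadjusted p under 0.05 and a log2 fold change of 0.5 or more in size), none was called higher (1.54% of all genes tested) or lower (3.28%), which is 0 against 4.83% in either direction. An unadjusted p under 0.05 was reached by 2 members, Parp14 and Eif2ak2, both lower in Gsdmd-/-, where 12.0% of all genes tested reached it. DESeq2 and edgeR's exact test each called 1 member at the adjusted p, Parp14, and limma voom called 0. The log2 fold change was above 0 for 14 members and below 0 for 20, and its median was -0.05, beside -0.01 over all genes tested. It ranged from -0.58 for Isg20 to 0.26 for Ifi204. The libraries of the genotypes did not overlap for 2 members, Isg20 and Parp14 (5.88%), beside 7.60% of all genes tested.

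What varied was the level within WT. For 20 of the 34 genes WT 2 and WT 3 were the lowest pair of the 8 libraries (58.8%, beside 17.5% of all genes tested). They were the highest pair for 4 genes, Samhd1, Gbp2, Gbp3 and Gbp5 (11.8%, beside 17.9%), and neither for 10. For 13 members all 4 Gsdmd-/- libraries lay between WT 2 and WT 3 on one side and WT 1 and WT 4 on the other (38.2%, beside 5.82%). The median SD of log2 CPM over the members was 0.52 in WT and 0.24 in Gsdmd-/-, where it was 0.24 and 0.16 over all genes tested. The highest WT library had at least 2 times the CPM of the lowest for 19 members, and the same held within Gsdmd-/- for 6. The SD of log2 CPM was larger in WT than in Gsdmd-/- for 26 members (76.5%), beside 71.7% of all genes tested. WT 4 was the highest of the 8 libraries for 18 members and WT 2 the lowest for 13. Within Gsdmd-/-, replicate 1 was the highest for 22 of the 34. These orders, and the counts of members with a range of at least 2 times, were not taken over all genes tested. They therefore cannot be read as particular to the members.

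**Figure D1:**
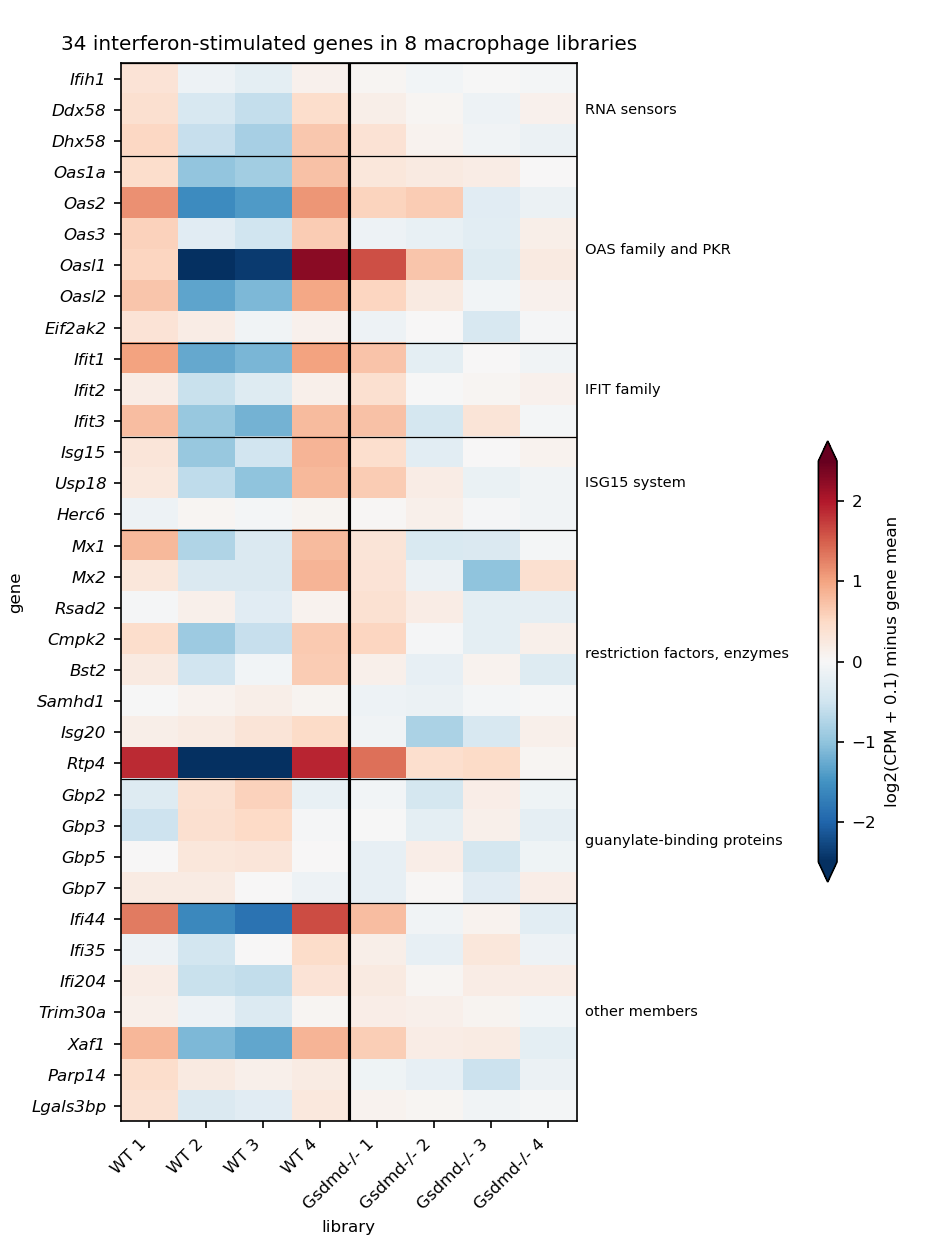
Each row is a member, grouped by role, and each column a library; the colour gives log2(CPM + 0.1) minus the mean of that gene over the 8 libraries, and values beyond the ends of the scale take its end colours. WT 2 and WT 3 are the lowest pair of the 8 libraries for 20 of the 34 genes, and the guanylate-binding proteins do not follow this.

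Markers of cell types were read beside these levels. The 9 macrophage markers were all detected, and their summed level was 21946, 16148, 17969 and 24022 CPM in WT and between 20012 and 23958 CPM in Gsdmd-/-, lowest in WT 2 and WT 3. Most of this sum was Lyz2, and the macrophage markers did not move together. Cd68, with 820.4, 414, 424 and 849 CPM in WT and 766, 778, 636 and 621 CPM in Gsdmd-/-, Lyz2, Itgam, Fcgr1 and C1qa were lowest in WT 2 and WT 3. Mertk, with 141, 249.6, 212 and 101 CPM in WT and 131, 142, 103 and 128 CPM in Gsdmd-/-, Adgre1 and Mrc1 were highest there. The 5 monocyte markers, of which 4 were tested, summed to 50.2, 5.87, 6.29 and 48.3 CPM in WT and between 22.8 and 28.1 CPM in Gsdmd-/-, lowest in WT 2 and WT 3. Outside WT 2 and WT 3 most of this was Ly6c2, at 35.5, 1.53, 0.427 and 30.3 CPM in WT. The 7 stromal and endothelial markers summed to 116, 244, 208 and 89.4 CPM in WT and between 89.2 and 134 CPM in Gsdmd-/-, highest in WT 2 and WT 3, and consisted almost wholly of Vwf, with Lum at 0. Conventional dendritic markers (7 genes, 4 tested) summed to 2228 to 2372 CPM in WT and 1674 to 2099 CPM in Gsdmd-/-, most of it Itgax. Among them Clec9a had 16.98, 49.1, 45.3 and 17.6 CPM in WT and 14.5, 16.4, 17.4 and 18.3 CPM in Gsdmd-/-, highest in WT 2 and WT 3. Plasmacytoid dendritic markers (8 genes, 2 tested, Siglech at 0) summed to 30.7 to 38.4 CPM in WT and 25.9 to 32.5 CPM in Gsdmd-/-. Mast and basophil markers (5 genes) summed to 5.01 to 9.56 CPM in WT and 7.22 to 9.15 CPM in Gsdmd-/-, neutrophil markers (8 genes) to 4.63 to 6.66 and 6.04 to 6.91 CPM, with Ly6g and Retnlg at 0 in all libraries, and lymphoid markers (8 genes) to at most 1.22 CPM, with Ncr1 at 0. The part of the macrophage, monocyte, dendritic, stromal and endothelial signals in the levels of the members was not tested. In bulk RNA, fewer cells of a type and less RNA per cell cannot be told apart.

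**Figure D2:**
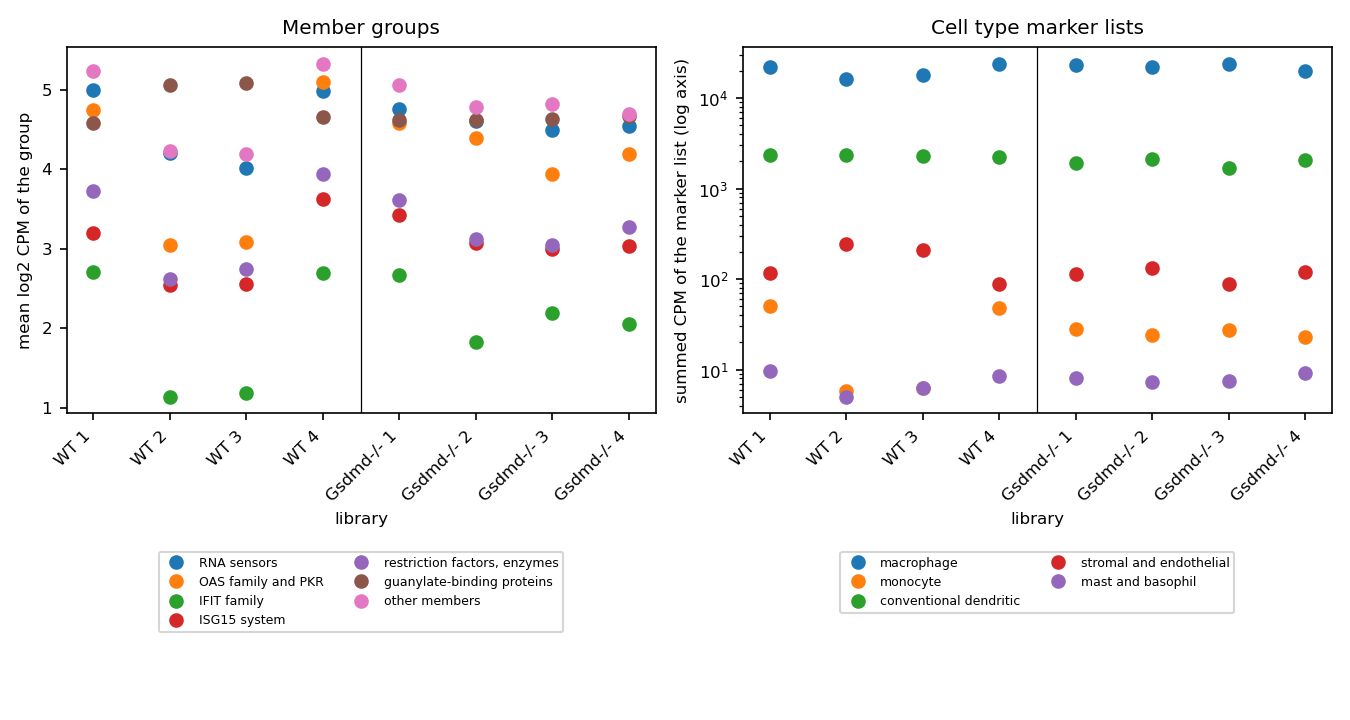
The left panel gives the mean log2 CPM of each group of members in each library, and the right panel the summed CPM (log axis) of 5 lists of cell type markers in the same libraries. WT 2 and WT 3 are low for every group on the left except the guanylate-binding proteins, low for the monocyte list (5.87 and 6.29 CPM) and high for the stromal and endothelial list (244 and 208 CPM).

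Levels differed widely between the members. Per kilobase of exon, which allows genes to be compared, the mean over the 8 libraries ran from 0.219 CPM for Mx2 to 197 CPM for Lgals3bp. The highest members after Lgals3bp were Bst2 with 113 and Samhd1 with 33.3 CPM per kilobase. A mean under 2 CPM was found for 3 members, Mx2, Isg20 and Ifi44, and the median member had a mean of 13.9 CPM. In GENCODE, 10 members share exon bases with another gene model (Dhx58, Eif2ak2, Gbp2, Gbp7, Herc6, Ifi35, Oasl1, Parp14, Rtp4 and Usp18), and their counts are less certain. For Gbp7, Herc6, Parp14 and Rtp4 the largest overlap is on the same strand, and for the others the sources do not say whether strand was used in counting.

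**Figure D3:**
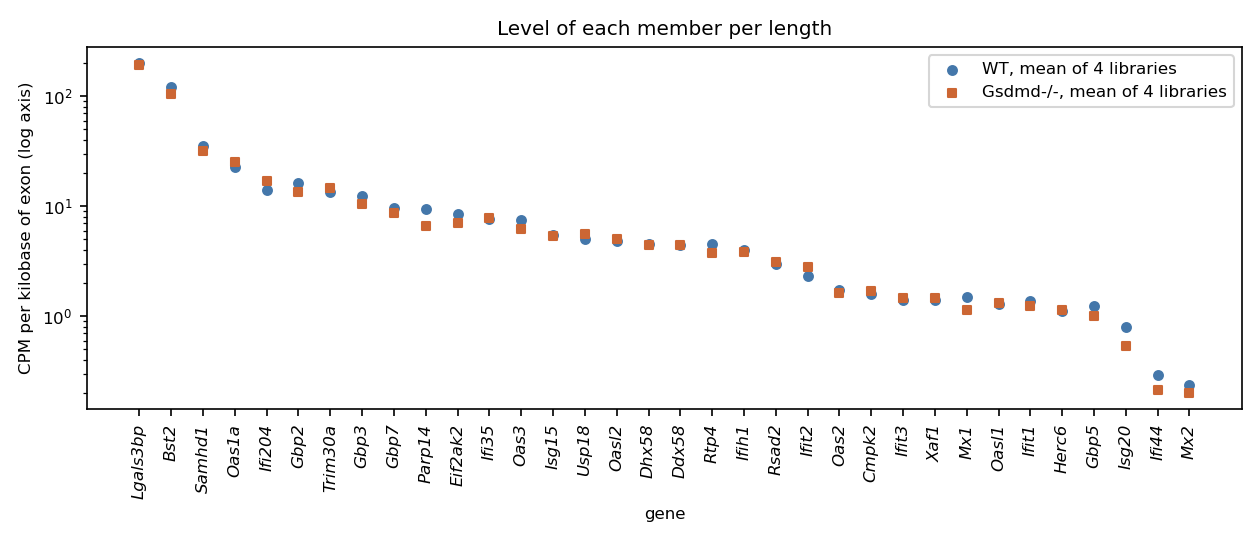
The vertical axis (log scale) gives CPM per kilobase of exon for each member, as the mean of 4 WT libraries (circles) and of 4 Gsdmd-/- libraries (squares), with genes ordered by the mean over all 8. Lgals3bp and Bst2 stand above 100 CPM per kilobase, and for most genes the symbols of the genotypes lie close together.

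The promoters of the members were searched for the core of the interferon-stimulated response element, since this is the sequence that ISGF3 and interferon regulatory factors bind. The windows were those of RefSeq on GRCm38.p6, with 250 bases before and 50 after each start, and 26 of the 34 genes had an entry. Usp18, Mx2, Mx1, Parp14, Rtp4, Dhx58, Ifi204 and Oas2 had none. GAAANNGAAA, read on either strand (TTTCNNTTTC on the other), stood in at least 1 window of 15 of the 26 genes (57.7%), beside 1079 of 27025 genes in the whole table (3.99%). TTCNNNGAA, the core of the gamma-activated site of promoters that respond to interferon gamma, and the same on both strands, stood in 9 of 26 (34.6%) beside 9.55% of all genes. The response element core stood in 8 of the 15 genes with a window that were lowest in WT 2 and WT 3, and in 7 of the 11 others. It was thus present in genes that followed the WT split and in genes that did not. The 180 bases before the start are printed for 5 genes, 5′ to 3′ on the strand of the gene, to show the spacing and number of these matches, and capitals mark every match to the response element core, with overlapping matches run together. Oas1a, Isg15 and Ifit1 were lowest in WT 2 and WT 3, Rsad2 was not, and Gbp2 was highest there. Oas1a was chosen by the rule for named genes, and the other 4 after their values had been seen.
Oas1a (chr5:120907526-120907705, minus strand): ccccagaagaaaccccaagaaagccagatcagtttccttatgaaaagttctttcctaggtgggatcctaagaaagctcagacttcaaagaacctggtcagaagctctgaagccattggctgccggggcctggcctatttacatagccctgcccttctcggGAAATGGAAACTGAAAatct
Isg15 (chr4:156200819-156200998, minus strand): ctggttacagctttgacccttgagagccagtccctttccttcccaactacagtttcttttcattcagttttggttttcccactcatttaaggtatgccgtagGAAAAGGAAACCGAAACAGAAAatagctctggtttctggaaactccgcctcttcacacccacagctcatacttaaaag
Ifit1 (chr19:34640709-34640888, plus strand): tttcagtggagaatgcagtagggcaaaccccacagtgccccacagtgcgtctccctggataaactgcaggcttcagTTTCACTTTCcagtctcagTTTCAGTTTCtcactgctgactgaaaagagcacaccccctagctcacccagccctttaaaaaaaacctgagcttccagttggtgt
Rsad2 (chr12:26456453-26456632, minus strand): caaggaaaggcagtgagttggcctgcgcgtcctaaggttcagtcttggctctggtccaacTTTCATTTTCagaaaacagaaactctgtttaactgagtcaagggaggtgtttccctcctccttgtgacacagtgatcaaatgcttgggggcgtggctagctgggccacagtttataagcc
Gbp2 (chr3:142620483-142620662, plus strand): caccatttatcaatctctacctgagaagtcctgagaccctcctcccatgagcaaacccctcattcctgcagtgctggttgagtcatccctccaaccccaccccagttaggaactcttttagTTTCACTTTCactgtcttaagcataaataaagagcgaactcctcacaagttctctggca
In Isg15 3 matches overlapped, in Ifit1 2 stood apart, and Rsad2 and Gbp2 had 1 each. A match gives only that these letters are present, and no match that they are not in this window.

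The cytosolic sensors of viral RNA were Ifih1 (MDA5), Ddx58 (RIG-I) and Dhx58 (LGP2), a helicase that tunes the other sensors. All 3 were lowest in WT 2 and WT 3. Ddx58 (ENSMUSG00000040296, chromosome 4) had 40.4, 22.97, 20.2 and 41.4 CPM in WT 1 to WT 4 and 33.8, 31.8, 27.8 and 32.7 CPM in Gsdmd-/- 1 to 4. Dhx58 had 19.8, 9.29, 7.69 and 22.1 CPM and 17.7, 14.8, 12.9 and 12.5 CPM in the same order. In both, every Gsdmd-/- library lay above WT 2 and WT 3 and below WT 1 and WT 4. The log2 fold changes were -0.06 for Ifih1, 0.01 for Ddx58 and -0.02 for Dhx58, with adjusted p of 0.897, 0.991 and 0.988.

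The 2'-5' oligoadenylate synthetases make the short oligoadenylates that switch on RNase L, and Eif2ak2 encodes PKR, the kinase that stops translation when it binds double-stranded RNA. Oas1a, Oas2 and Oas3 lie together on chromosome 5, as do Oasl1 and Oasl2. All 5 were lowest in WT 2 and WT 3, and Eif2ak2 was not. Oas1a (chr5:120896256-120907521) had 57.2, 21.3, 23.2 and 69.9 CPM in WT and 51.2, 49.5, 47.8 and 42.7 CPM in Gsdmd-/-. The Gsdmd-/- libraries were close to each other and fell in the gap between the WT pairs. Means were 42.9 ± 24.4 CPM in WT and 47.8 ± 3.69 CPM in Gsdmd-/- (SD, n = 4), and the log2 fold change was 0.16 (SE 0.34, adjusted p = 0.894). The near-identical neighbour Oas1g could share reads with Oas1a, and had 22.2, 5.99, 8.79 and 27.7 CPM in WT and 15.6, 13.5, 14.8 and 13.7 CPM in Gsdmd-/-, in the same pattern.

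Oasl1 (chr5:114923240-114937915), an oligoadenylate synthetase-like protein with no synthetase activity known to restrain translation of IRF7, had 49, 4, 5 and 165 counts in WT and 107, 56, 25 and 36 in Gsdmd-/-. These counts gave 2.98, 0.244, 0.305 and 10.04 CPM in WT, a 41.1-fold range, and 6.34, 3.31, 1.59 and 2.39 CPM in Gsdmd-/-. The log2 fold change was 0.01 with an SE of 0.88 (adjusted p = 0.997). Oasl2 had 44.7, 11.1, 12.7 and 54.4 CPM in WT and 40.2, 32.4, 26.4 and 29.98 CPM in Gsdmd-/-, and Oas2 had 13.4, 1.96, 2.20 and 13.02 CPM and 8.94, 9.46, 4.95 and 5.44 CPM. In both genes the Gsdmd-/- libraries lay wholly between the WT pairs. Oas3 had 69.6, 38.2, 33.2 and 72.7 CPM in WT and 42.8, 41.05, 38.6 and 51.3 CPM in Gsdmd-/-, with a log2 fold change of -0.30 (SE 0.24, adjusted p = 0.677). Eif2ak2 had 50.1, 45.1, 37.6 and 42.5 CPM in WT and 36.1, 39.9, 30.2 and 39.1 CPM in Gsdmd-/-, a log2 fold change of -0.27 (SE 0.12, unadjusted p = 0.0448, adjusted p = 0.398).

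The IFIT proteins, of which IFIT1 binds viral RNA that lacks the cap methylation of the host, are encoded by genes that lie close together on chromosome 19. Ifit1, Ifit2 and Ifit3 were all lowest in WT 2 and WT 3. Ifit1 had 6.03, 1.16, 1.28 and 6.02 CPM in WT and 4.92, 2.48, 2.98 and 2.79 CPM in Gsdmd-/-. Ifit3 had 3.83, 1.10, 0.916 and 3.89 CPM and 3.73, 1.60, 2.79 and 2.12 CPM, and its close copy Ifit3b had at most 0.183 CPM. Ifit2 (chr19:34550694-34576419) showed less spread, with 11.3, 6.66, 7.94 and 10.8 CPM in WT and 13.03, 9.88, 10.3 and 10.7 CPM in Gsdmd-/-. Only Gsdmd-/- 1 lay above all WT libraries. The group means of Ifit2 were 9.17 ± 2.23 CPM in WT and 10.97 ± 1.42 CPM in Gsdmd-/- (SD, n = 4), and its log2 fold change of 0.26 (SE 0.18, adjusted p = 0.621) was among the 3 highest of the members.

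ISG15 is a ubiquitin-like protein that is joined to other proteins after interferon, USP18 removes it and damps the receptor, and HERC6 is the mouse ligase that attaches it. Isg15 had 4.75, 1.96, 2.75 and 6.999 CPM in WT and 5.15, 3.19, 3.87 and 4.11 CPM in Gsdmd-/-. Usp18 had 16.4, 8.74, 6.78 and 23.98 CPM in WT and 21.3, 15.6, 12.2 and 12.9 CPM in Gsdmd-/-. Both were lowest in WT 2 and WT 3. Herc6 was nearly level over all 8 libraries, between 9.56 and 11.3 CPM, and did not follow this. The log2 fold changes of the 3 genes lay between -0.01 and 0.15.

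The antiviral restriction factors and enzymes were less alike. Rtp4 (chr16:23520291-23614222), a chaperone of receptors that is induced by interferon, had 307, 8, 9 and 315 counts in WT and 223, 115, 111 and 79 in Gsdmd-/-. As CPM these were 18.7, 0.489, 0.550 and 19.2 in WT and 13.2, 6.80, 7.04 and 5.24 in Gsdmd-/-, so that the highest WT library had 39.2 times the level of the lowest. This was the widest spread within WT among the members, on the log2 scale with a prior count of 2. On average there were 9.72 ± 10.6 CPM in WT and 8.07 ± 3.52 CPM in Gsdmd-/- (SD, n = 4), and the log2 fold change of -0.27 had an SE of 0.89 (adjusted p = 0.934).

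Rsad2 (viperin) makes an antiviral nucleotide from the product of Cmpk2, a mitochondrial nucleotide kinase, and these genes lie close together on chromosome 12. Cmpk2 had 8.70, 3.36, 4.27 and 10.2 CPM in WT and 9.36, 6.27, 5.39 and 7.03 CPM in Gsdmd-/-, and was lowest in WT 2 and WT 3. Rsad2 had 12.7, 14.2, 10.7 and 13.9 CPM in WT and 17.001, 14.7, 10.97 and 11.1 CPM in Gsdmd-/-. Its WT 2 library was the highest of WT, so these genes differed in their pattern. Mx1, a GTPase that blocks influenza virus, had 8.16, 2.69, 3.54 and 8.03 CPM in WT and 5.75, 3.49, 3.55 and 4.44 CPM in Gsdmd-/- (log2 fold change -0.38, adjusted p = 0.726). Mx2 stood near the limit of detection, between 0.317 and 1.40 CPM.

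Bst2 (tetherin, chr8:71534255-71537456), which holds budding virus at the cell surface, had 116, 71.9, 95.1 and 155 CPM in WT and 108, 85.8, 106 and 79.4 CPM in Gsdmd-/-. WT 1 and WT 4 were above all Gsdmd-/- libraries and WT 2 below them. The group means were 109.6 ± 35.5 CPM and 94.8 ± 14.3 CPM (SD, n = 4), with a log2 fold change of -0.21 (SE 0.21, adjusted p = 0.744). Samhd1 (chr2:157097533-157135265), a dNTP hydrolase that starves reverse transcription, had 301, 325, 338 and 319 CPM in WT and 280.2, 276, 294 and 304 CPM in Gsdmd-/-. Here WT 2 and WT 3 were the highest pair, and only Gsdmd-/- 4 reached into the WT range. The means of 321 ± 15.4 CPM and 288 ± 12.8 CPM (SD, n = 4) gave a log2 fold change of -0.15 (SE 0.08, adjusted p = 0.469).

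Isg20 (chr7:78913424-78920396), a 3′ to 5′ RNA exonuclease, had the lowest log2 fold change of the members. It had 1.34, 1.41, 1.53 and 1.70 CPM in WT and 1.13, 0.651, 0.888 and 1.33 CPM in Gsdmd-/-, from 11 to 28 counts per library. The genotypes did not overlap, but WT 1 and Gsdmd-/- 4 were nearly equal. This gave means of 1.49 ± 0.160 CPM in WT and 0.998 ± 0.293 CPM in Gsdmd-/- (SD, n = 4), and the log2 fold change was -0.58 (SE 0.27, unadjusted p = 0.0583, adjusted p = 0.441).

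**Figure D4:**
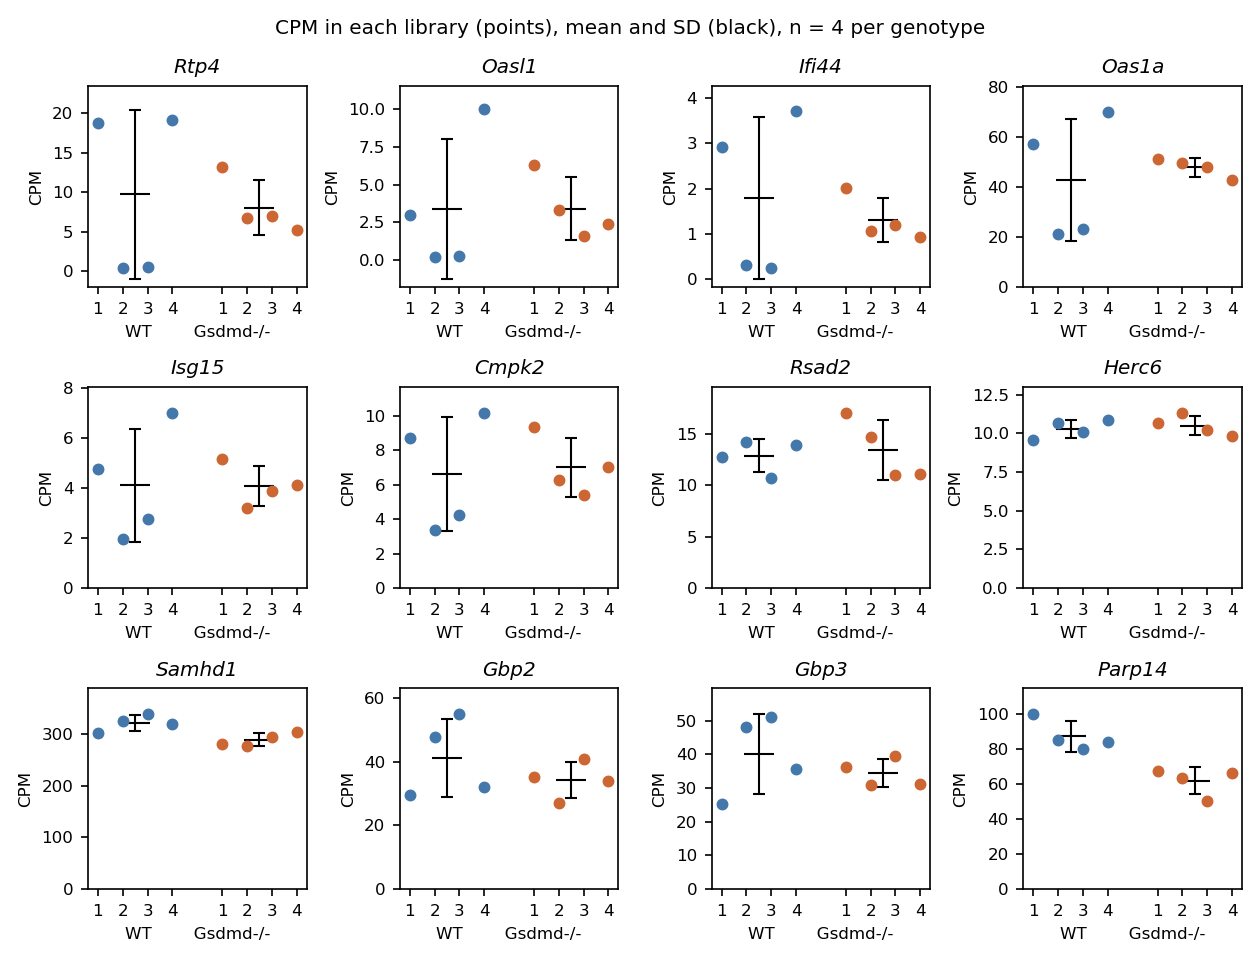
Points give the CPM of each library (blue WT, orange Gsdmd-/-, numbered by replicate) for 12 members, and the black marks the mean and SD of 4 libraries per genotype. In Rtp4, Oasl1, Ifi44, Oas1a, Isg15 and Cmpk2 WT 2 and WT 3 lie below WT 1 and WT 4, in Gbp2 and Gbp3 above them, and in Parp14 all Gsdmd-/- libraries lie below all WT libraries.

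The guanylate-binding proteins, GTPases that attack the vacuoles of bacteria and parasites and that respond chiefly to interferon gamma, did not share this pattern. None of the 4 was lowest in WT 2 and WT 3, and Gbp2, Gbp3 and Gbp5 were highest there. Gbp2 had 29.5, 47.8, 54.9 and 32.2 CPM in WT and 35.2, 26.97, 40.98 and 33.8 CPM in Gsdmd-/-. Gbp3 had 25.4, 47.96, 51.2 and 35.6 CPM in WT and 36.2, 30.8, 39.6 and 31.05 CPM in Gsdmd-/-. The mean log2 CPM of the 4 genes was 4.58, 5.05, 5.08 and 4.65 in WT and between 4.62 and 4.67 in Gsdmd-/-. Their log2 fold changes with all libraries were -0.26, -0.22, -0.28 for Gbp5 and -0.14 for Gbp7, and none had an adjusted p below 0.529. All 4 lie in a single cluster on chromosome 3.

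Of the remaining members, Ifi44 (chr3:151730922-151749960), a gene induced by interferon whose product is found in the cytoplasm, had 48, 5, 4 and 61 counts in WT and 34, 18, 19 and 14 in Gsdmd-/-. As CPM these were 2.92, 0.306, 0.244 and 3.71 in WT, a 15.2-fold range, and 2.01, 1.06, 1.21 and 0.929 in Gsdmd-/-. Means were 1.80 ± 1.79 CPM and 1.30 ± 0.487 CPM (SD, n = 4), and the log2 fold change was -0.46 with an SE of 0.72 (adjusted p = 0.844). Xaf1, a proapoptotic antagonist of XIAP, followed the same pattern with 10.5, 2.63, 2.32 and 10.6 CPM in WT and 9.004, 6.68, 6.72 and 4.91 CPM in Gsdmd-/-. Ifi204 (chr1:173747293-173766943), a DNA-binding protein of the HIN-200 family, had 61.2, 36.2, 34.99 and 67.9 CPM in WT and 62.7, 55.3, 60.8 and 60.8 CPM in Gsdmd-/-. Its mean was 50.1 ± 16.9 CPM in WT and 59.9 ± 3.19 CPM in Gsdmd-/- (SD, n = 4), and the log2 fold change of 0.26 (SE 0.20, adjusted p = 0.665) was the highest of the members. Trim30a, a negative regulator of Toll-like receptor signaling, had a mean of 55.4 CPM in WT and 60.6 CPM in Gsdmd-/-. Both genes belong to families of similar copies, so their counts are less certain. Ifi35 was between 9.47 and 17.9 CPM.

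Parp14 (chr16:35832874-35871544), a mono-ADP-ribosyltransferase, had the lowest p of the members. It had 99.8, 85.3, 79.8 and 83.7 CPM in WT and 67.4, 63.6, 50.5 and 66.3 CPM in Gsdmd-/-. Every Gsdmd-/- library lay below every WT library, and WT 2 and WT 3 did not stand apart. The group means were 87.2 ± 8.76 CPM in WT and 61.97 ± 7.82 CPM in Gsdmd-/- (SD, n = 4). The log2 fold change was -0.49 (SE 0.11, unadjusted p = 0.00127, adjusted p = 0.115), which missed both the adjusted threshold and, narrowly, the fold cutoff. DESeq2 gave it an adjusted p of 0.0102 and edgeR's exact test 0.0138.

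Lgals3bp (chr11:118392751-118402092), a secreted glycoprotein that binds galectins, was the most abundant member. It had 721, 432, 452 and 662 CPM in WT and 588, 570.4, 519 and 537 CPM in Gsdmd-/-. WT 2 and WT 3 were the lowest of the 8 libraries and WT 1 and WT 4 the highest. The means of 567 ± 146 CPM and 554 ± 31.4 CPM (SD, n = 4) gave a log2 fold change of -0.03 (SE 0.16, adjusted p = 0.955).

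Without WT 2 and WT 3 the picture between the genotypes changed. With WT 1 and WT 4 against the 4 Gsdmd-/- libraries, the log2 fold change was below 0 for 30 of the 34 members, with a median of -0.42 beside -0.01 over all 13288 genes then tested. At the cutoff 12 members were lower and 0 higher, where 3.15% of all genes tested were lower and 3.05% higher. An unadjusted p under 0.05 was reached by 17, all lower, beside 6.80% of all genes tested that were lower. At the adjusted p only Oas3 was called, with a log2 fold change of -0.71 (SE 0.12, adjusted p = 0.0230), beside 1.21% of all genes tested. The genotypes did not overlap for 18 members, all lower in Gsdmd-/-, beside 22.7% of all genes tested. For members that were lower in WT 2 and WT 3 than in WT 1 and WT 4, leaving these libraries out raises the WT mean by construction. These were the 20 members for which WT 2 and WT 3 were the lowest pair, and others such as Mx1 and Bst2. The values without WT 2 and WT 3 are therefore no independent sign of a difference.

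By role, the median log2 fold change without WT 2 and WT 3 was -0.38 for the RNA sensors, -0.67 for the OAS family and PKR, -0.59 for the IFIT family, -0.38 for the ISG15 system, -0.57 for the restriction factors and enzymes and -0.32 for the other members, and 0.02 for the guanylate-binding proteins. Ifi44 was at -1.34 (adjusted p = 0.0935), Rtp4 at -1.22 (adjusted p = 0.0869), Mx1 at -0.91 (adjusted p = 0.0855) and Parp14 at -0.57 (adjusted p = 0.0870). Rsad2 and Herc6 stayed near 0, at 0.02 and 0.04. Ifit2, Oas1a and Oasl2, above 0 with all libraries, were at -0.01, -0.41 and -0.62.

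**Figure D5:**
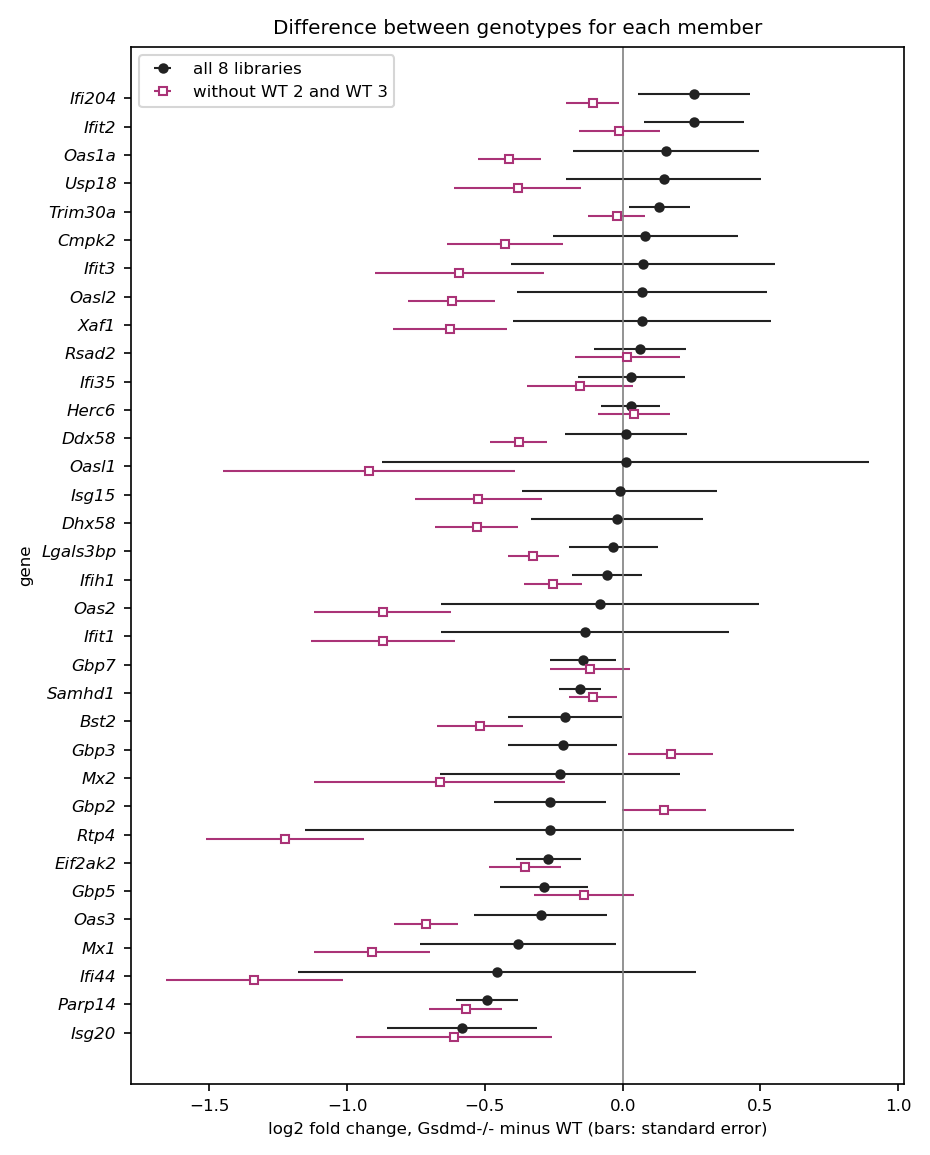
The horizontal axis gives the log2 fold change, Gsdmd-/- minus WT, of each member with its standard error, with all 8 libraries (filled circles) and without WT 2 and WT 3 (open squares). With all libraries the members lie on both sides of 0, and without WT 2 and WT 3 30 of the 34 lie below it.

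The related interferon genes were taken from lists of ligands, receptors, signal transducers, regulatory factors, sensors, negative regulators and other interferon-stimulated genes, 162 genes in all, of which 129 were tested. At the adjusted p 0 were higher and 1 was lower in Gsdmd-/-, beside 0.349% of all genes tested in either direction. At the cutoff 1 was higher and 4 were lower, 5 of 129 in all, which is not above the 4.83% of all genes tested. An unadjusted p under 0.05 was reached by 22 of the 129, of which 4 were higher and 18 lower, beside 12.0% of all genes tested, 612 higher and 943 lower. The genotypes did not overlap for 13 (10.1%, beside 7.60%). None of the 13 interferon genes listed, of types I, II and III, passed the filter on low counts. Of these, 12, Ifnb1 among them, had 0 counts in all 8 libraries, and Ifnk had 6 counts in total. The receptor chain Ifnar1 was also lowest in WT 2 and WT 3, with 122, 73.7, 70.8 and 112 CPM in WT and 87.7, 94.6, 84.4 and 95.1 CPM in Gsdmd-/-. Its log2 fold change was -0.07 (adjusted p = 0.912) with all libraries and -0.38 (adjusted p = 0.115) without WT 2 and WT 3. The partner chain Ifnar2, also on chromosome 16, was level between 64.9 and 70.9 CPM.

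Among the factors that act behind the receptor, Irf9, the DNA-binding subunit of ISGF3, had 40.9, 20.7, 25.9 and 43.7 CPM in WT and 37.1, 28.3, 30.8 and 25.01 CPM in Gsdmd-/-. Its log2 fold change was -0.11 (adjusted p = 0.882) with all libraries and -0.48 (adjusted p = 0.172) without WT 2 and WT 3. Irf7, itself induced by interferon and needed for its amplification, had 18.8, 1.47, 2.14 and 34.4 CPM in WT and 10.5, 9.29, 6.60 and 5.71 CPM in Gsdmd-/-. In Irf7 WT 2 and WT 3 were lowest and the Gsdmd-/- libraries lay between the WT pairs, while in Irf9 Gsdmd-/- 4 lay between WT 2 and WT 3. The log2 fold change of Irf7 was -0.82 (SE 0.78, adjusted p = 0.728) with all libraries and -1.72 (adjusted p = 0.0178) without WT 2 and WT 3.

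Stat2 differed from these. It had 44.1, 52.5, 47.8 and 41.7 CPM in WT and 35.7, 34.9, 23.2 and 26.7 CPM in Gsdmd-/-, with no overlap between the genotypes. The log2 fold change was -0.63 (SE 0.15, unadjusted p = 0.00145, adjusted p = 0.124) with all libraries and -0.51 (adjusted p = 0.214) without WT 2 and WT 3. Over all settings and tests tried, the adjusted p of Stat2 ran from 0.00937 to 0.313. Irf1, a regulatory factor induced chiefly by interferon gamma, was the 1 related gene that passed the adjusted threshold. It had 31.7, 38.9, 44.8 and 44.3 CPM in WT and 21.1, 20.996, 26.6 and 25.2 CPM in Gsdmd-/-, and every Gsdmd-/- library lay below every WT library. The means of 39.9 ± 6.09 CPM and 23.5 ± 2.88 CPM (SD, n = 4) gave a log2 fold change of -0.77 (SE 0.13, adjusted p = 0.0468). The call was lost without WT 2 and WT 3 (-0.70, adjusted p = 0.0695), when any 1 library other than WT 1 was left out, by limma voom and with upper quartile scaling, with adjusted p from 4.94e-05 to 0.233 over all alternatives.

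At the cutoff the other genes were Irgm2, an immunity-related GTPase, at -0.61 (adjusted p = 0.0751), Helz2, a helicase and nuclear receptor coactivator, at -0.54 (adjusted p = 0.252) and Trim30b at 0.88 (adjusted p = 0.408) on the log2 scale. Irgm2 had 14.8, 18.1, 13.99 and 16.2 CPM in WT and 11.1, 10.8, 9.90 and 9.75 CPM in Gsdmd-/-. Over all settings and tests tried, the adjusted p of Irgm2 ran from 0.00143 to 0.235. Trim30b was low, between 0.244 and 1.48 CPM. Among the 84 other interferon-stimulated genes tested, 0 passed the adjusted threshold and 1 was higher and 2 were lower at the cutoff, again not above the share of all genes tested. WT 2 and WT 3 were the lowest pair for 41 of them (48.8%, beside 17.5% of all genes tested) and the highest for 6 (7.14%, beside 17.9%). Without WT 2 and WT 3, 7 of 130 related genes were called at the adjusted p, beside 1.21% of all genes tested. All were lower, namely Ccl5, Ly6a, Oas1g, Irf7, Fcgr1, Ms4a6c and Pml. Oas1g, Irf7 and Fcgr1 were among the genes lowest in WT 2 and WT 3. For such genes leaving these libraries out raises the WT mean by construction, so these calls are no independent sign of a difference.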

How the data were processed

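RNA of untreated BMDMs from 4 WT and 4 Gsdmd-/- libraries was sequenced by a company from TruSeq libraries. The authors deposited raw read counts per gene for the 8 libraries, which are whole numbers and not normalized. The labels name the genome build mm10. The aligner, the counting tool and the annotation are not given in the sources used here. Positions and exon lengths were taken from GENCODE M21, and promoter sequences from RefSeq on GRCm38.p6. After filterByExpr, 12911 genes were left, and libraries were scaled by TMM. The genotypes were then compared in edgeR 4.0.16 (R 4.3.3) with its quasi-likelihood test, two-sided, with no covariate and with Benjamini-Hochberg adjustment over these genes. TMM factors enter all CPM, and a prior count of 2 was added for log2 CPM. The script was tested on simulated data. Total counts were 14935114 to 16794810 per library, and intervals and floors cover counting error only.

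The members, the related lists and the alternatives were chosen with earlier results of these data known. All members are named. Full values were given for those past either call rule, for the 3 highest and the 3 lowest log2 fold changes, for the 3 highest levels per kilobase and for the 3 widest ranges of log2 CPM in WT. Ifnb1, Ifnar1, Ifnar2, Stat2, Irf9, Irf7 and related genes past a threshold were named too, 1 gene of that rule is not reported here, and values of other members were chosen after they had been seen. As alternatives, DESeq2 1.42.0, limma 3.58.1 (voom), the exact test of edgeR, RLE, upper quartile and no scaling, leaving the filter out or asking for 10 counts or more in each library, a replicate block, leaving out each library, leaving out WT 2 and WT 3 together, and a fold cutoff of 1 on the log2 scale were tried.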

Additional observations from a re-analysis of the deposited data

Results flagged for a closer look

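Of 88 groups of 4 libraries examined for a value far from the rest, 1 met the criterion (Dixon's ratio above its 95% critical value), where chance gives about 1 in 20. It was Ifnar2 in Gsdmd-/-, whose highest library (replicate 1) had 70.9 CPM and stood apart from the other 3 by 0.869 of the range of the group. The log2 fold change of Ifnar2 between the genotypes was 0.00 (SE 0.07).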

How the results depend on the processing

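Calls rest on 4 libraries per genotype, and the members under 2 CPM on few reads. With 8 settings that leave out 1 library and 10 others (9 for Oasl1, Mx2, Rtp4 and Ifi44, which fell below 10 counts in a library), the direction held in all for 8 members and turned in at least 1 for 26, of which 14 turned without WT 2 and WT 3. The causes were not tested.

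Members called at the adjusted p were 0, with 1 by DESeq2 (Parp14), 1 by the exact test (Parp14) and 1 without WT 2 and WT 3 (Oas3), and 0 with any 1 library left out. At the cutoff they were 0, with 1 by voom and 1 with at least 10 counts in every library (both Isg20), 12 without WT 2 and WT 3, and 0 to 2 with 1 library left out. Related genes called at the adjusted p were 1, with 5 by DESeq2, 0 by voom, 5 by the exact test, 2 with RLE, 0 with upper quartile and 2 with no scaling, 7 without WT 2 and WT 3, and 0 to 1 with 1 library left out. The log2 ratio of the mean CPM over the members was -0.09, and -0.30 without WT 2 and WT 3 and -0.17 to -0.0038 with 1 library left out. Gsdmd stayed between -2.29 and -2.08 with 1 library left out.

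Replicate numbers shared between the genotypes did not mark paired libraries. The correlations of the deviations of same-numbered libraries from their group means were 0.03, 0.18, 0.04 and -0.20. With the replicate block the members called were still 0 at both thresholds. The block turned Dhx58 to 0.10, Oas2 to 0.27, Ifit1 to 0.13, Isg15 to 0.11, Rtp4 to 0.66, Ifi44 to 0.0054, Lgals3bp to 0.0004 and Irf7 to 0.0032 on the log2 scale.

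Other reversals, as log2 fold changes, were these. Without WT 2 and WT 3 they were Ddx58 -0.38, Oas1a -0.41, Oasl1 -0.92, Oasl2 -0.62, Ifit2 -0.0125, Ifit3 -0.59, Usp18 -0.38, Cmpk2 -0.43, Gbp2 0.15, Gbp3 0.17, Ifi35 -0.16, Ifi204 -0.11, Trim30a -0.022 and Xaf1 -0.63. By voom they were Dhx58 0.11, Oas2 0.41, Ifit1 0.22, Isg15 0.14, Rtp4 1.25, Ifi44 0.35, Lgals3bp 0.0007 and Irf7 0.22. Isg15 was 0.0022 with upper quartile and 0.0083 without a filter, and Ifnar2 was -0.0019 by DESeq2, -0.0021 with RLE and -0.0052 with at least 10 counts.

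With 1 library left out, these genes turned in at least 1 case, with lowest and highest log2 fold changes as follows: Ifih1 -0.14 to 0.065, Ddx58 -0.15 to 0.18, Dhx58 -0.23 to 0.25, Oas1a -0.0704 to 0.50, Oas2 -0.41 to 0.34, Oasl1 -0.48 to 1.53, Oasl2 -0.21 to 0.50, Ifit1 -0.43 to 0.23, Ifit3 -0.20 to 0.39, Isg15 -0.25 to 0.38, Usp18 -0.08 to 0.54, Herc6 -0.011 to 0.059, Mx2 -0.41 to 0.12, Rsad2 -0.068 to 0.15, Cmpk2 -0.14 to 0.37, Bst2 -0.37 to 0.0098, Rtp4 -0.66 to 0.30, Ifi44 -0.82 to 0.18, Ifi35 -0.10 to 0.22, Xaf1 -0.21 to 0.41, Lgals3bp -0.15 to 0.10, Ifnar1 -0.18 to 0.083, Ifnar2 -0.029 to 0.015, Irf9 -0.29 to 0.057 and Irf7 -1.20 to 0.11.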
